A study of Mus musculus with 6 samples.

Results

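The genes described here are 40 mouse genes of mitosis and the kinetochore, chosen by name: cyclins and kinases that start mitosis, proteins that join chromosomes to the spindle, motors and proteins of the spindle itself, and proteins of the condensed chromosome. The rule used gene names and no measured value, but the list was drawn up with earlier results of these data known. Of the 40, 39 had at least 1 probe set paired with that gene alone on the arrays, and these 39 genes carried 87 such probe sets, among 18193 genes and 34945 single-gene probe sets in all. Ccnb1, which encodes cyclin B1, lay only on probe sets paired with several genes and is not analysed here.

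The RNA came from whole brains of C57BL/6 mice with no genetic change named in the labels. Pups of both sexes received testosterone propionate (TP, an esterified androgen) on postnatal day 2 by injection into the abdomen, at 1 mg in 20 µL of sesame oil per mouse. Control pups received 20 µL of the oil alone (vehicle). Brains were collected on postnatal day 6, and each array was hybridised with RNA pooled from 6 mice. There were 2 arrays of vehicle females, 2 of TP females, 1 of vehicle males and 1 of TP males. The later female array of each treatment is called a replica in the labels, with no word on whether it was a new pool, so each p-value reflects differences among arrays that could be purely technical.

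Mitosis shares duplicated chromosomes between daughter cells. Cyclin-bound Cdk1 drives entry, kinetochores assembled on centromeres capture spindle microtubules, and the spindle checkpoint delays chromosome separation until every kinetochore is attached. The genes are transcribed together late in the cell cycle and are nearly silent in neurons, so in tissue their RNA is widely used as a measure of proliferation. In the early postnatal mouse brain the main dividing cells are granule cell precursors of the cerebellum, progenitors of the subventricular zone and precursors of glia.

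Values are deposited log2 expression levels, and a difference of 1 unit is a doubling. Array medians lay between 5.69 and 5.74 over all probe sets. Where a gene had several probe sets, the 1 with the highest mean stands for it, and levels of different genes are not compared because they depend on the probes. The Y-linked genes Eif2s3y, Kdm5d and Uty were at male levels on both male arrays. Xist, the RNA of the inactive X chromosome, stood between 12.61 and 12.83 on the female arrays, at 5.29 on the vehicle male array and at 10.45 on the array labelled male TP, so that array goes partly against its label. Counts and medians of the sex difference are therefore also given without it, as are single genes where leaving it out turned the direction or moved the value by over 1.5 times (9 of 39). The difference between the male arrays rests on it entirely.

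Promoters of these genes are shown first, because the members varied together across the arrays and promoter letters are a feature that the choice of genes did not use. RefSeq promoter sequences of mouse assembly GRCm38.p6, covering 250 bases before to 50 bases after each start, matched 32 of the 40 genes by symbol, with 33 promoters because Prc1 has 2. The letters searched on both strands were TTTGAA or TTTAAA, forms of the cell cycle genes homology region (CHR), and CCAAT, the CCAAT box. Matches that share bases, as in Cdca8 and Ube2c, were each counted. Capitals mark these letters in the printed sequences. On the opposite strand a match reads as its reverse complement, so that the CCAAT box appears there as ATTGG. Ccnb2 (chr9:70421505-70421804 on the minus strand), Cdk1 (chr10:69352863-69353162 on the minus strand), Spc25 (chr2:69206164-69206463 on the minus strand) and Cenpe (chr3:135212313-135212612 on the plus strand) are shown as members with large differences between the sexes and both kinds of letters. Nuf2 (chr1:169531415-169531714 on the minus strand) is shown as a kinetochore gene with neither.
Ccnb2: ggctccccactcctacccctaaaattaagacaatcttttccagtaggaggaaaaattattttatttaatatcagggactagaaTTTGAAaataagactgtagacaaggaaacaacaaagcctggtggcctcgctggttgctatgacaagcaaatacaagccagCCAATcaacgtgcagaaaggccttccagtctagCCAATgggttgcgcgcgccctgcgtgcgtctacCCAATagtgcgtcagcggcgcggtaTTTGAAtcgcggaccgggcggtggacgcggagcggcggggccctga
Cdk1: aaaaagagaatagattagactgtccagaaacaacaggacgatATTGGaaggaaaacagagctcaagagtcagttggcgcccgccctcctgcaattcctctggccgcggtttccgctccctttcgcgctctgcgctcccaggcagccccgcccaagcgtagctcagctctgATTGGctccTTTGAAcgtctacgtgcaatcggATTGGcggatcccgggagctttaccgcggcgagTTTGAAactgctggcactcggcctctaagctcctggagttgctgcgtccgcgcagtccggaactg
Spc25: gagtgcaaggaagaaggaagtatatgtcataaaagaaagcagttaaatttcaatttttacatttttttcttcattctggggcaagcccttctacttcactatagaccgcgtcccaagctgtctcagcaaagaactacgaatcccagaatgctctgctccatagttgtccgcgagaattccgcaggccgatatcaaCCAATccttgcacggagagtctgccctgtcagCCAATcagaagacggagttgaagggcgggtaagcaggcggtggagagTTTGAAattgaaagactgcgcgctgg
Cenpe: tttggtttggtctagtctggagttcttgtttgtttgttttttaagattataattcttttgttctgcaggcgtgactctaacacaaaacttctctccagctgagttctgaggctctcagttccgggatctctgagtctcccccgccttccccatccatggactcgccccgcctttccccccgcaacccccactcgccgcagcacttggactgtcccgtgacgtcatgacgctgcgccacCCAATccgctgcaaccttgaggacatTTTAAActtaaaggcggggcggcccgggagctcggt
Nuf2: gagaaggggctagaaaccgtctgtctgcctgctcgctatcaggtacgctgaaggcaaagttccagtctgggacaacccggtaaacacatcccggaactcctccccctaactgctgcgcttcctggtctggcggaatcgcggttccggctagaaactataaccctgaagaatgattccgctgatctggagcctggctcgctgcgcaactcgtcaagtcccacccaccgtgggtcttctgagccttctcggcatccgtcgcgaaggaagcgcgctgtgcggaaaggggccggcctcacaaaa

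CHR letters were present in 27 of the 33 member promoters (81.8%) and in 27.6% of all 32851 promoters given. A CHR form within 50 bases of the start was found in 24 member promoters (72.7%), against 8.28% of all promoters. CCAAT was present in 25 (75.8%, against 37.4%), and at least 2 copies of it in 18 (54.5%, against 11.7%). Both a CHR form within 50 bases of the start and at least 2 CCAAT copies were found in 15 member promoters (45.5%) and in 0.989% of all. These matches describe letters in the window and do not show binding.

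The difference shared by most of the 39 genes was between the sexes. In an additive limma model of sex and treatment over the 6 arrays, 38 of 39 genes were lower in males, against 58.5% of all genes, and the median difference was -0.23 log2 units, against -0.024 over all genes. Both male arrays lay below all 4 female arrays for 26 of 39 genes, against 15.1% of all genes, and above them for 0, against 7.04%. None of the 39 passed an adjusted p of 0.05, whereas 27 had an unadjusted p under 0.05, all lower in males (8.37% of all genes were lower and 5.65% higher at that level). Over all genes 0% passed as lower and 0.0165% as higher. In whole-brain RNA, fewer cells of a type and less RNA per cell cannot be told apart.

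Without the array labelled male TP, the difference between the vehicle males and vehicle females was below 0 for 37 of 39 genes (56.7% of all genes), with a median of -0.21. The vehicle male array lay below all 4 female arrays for 28 genes (26.2%), and the medians of the 8 role groups ran from -0.31 for the cyclin group to -0.12 for the kinases. Within the TP arrays 38 of 39 were lower (57.7%), with a median of -0.23. The background was itself uneven, because 72.5% of genes not dim (at or above the 40th percentile of mean level, 6.19) were lower in males, with a median of -0.051. Of the 39 members, 36 were not dim. Of the 10916 genes not dim, 2385 had both males below all females, and 1220 had an unadjusted limma p under 0.05 as lower. Without the TP male array 67.3% of these genes were lower, and the vehicle male array lay below all 4 female arrays for 3856. Centring each array on its median left 37 of 39 members lower (40.6% of all genes), with a median of -0.18 against 0.025 over all genes. With dim genes left out of the test, or with an intensity trend in the error model, 3 members passed, Spc25, Cenpe and Ccnb2, with adjusted p-values of 0.00727, 0.0227 and 0.0361 or 0.00602, 0.0416 and 0.0267. Under these settings 0.0916% and 0.104% of the genes tested passed as lower in males.

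**Figure D1:**
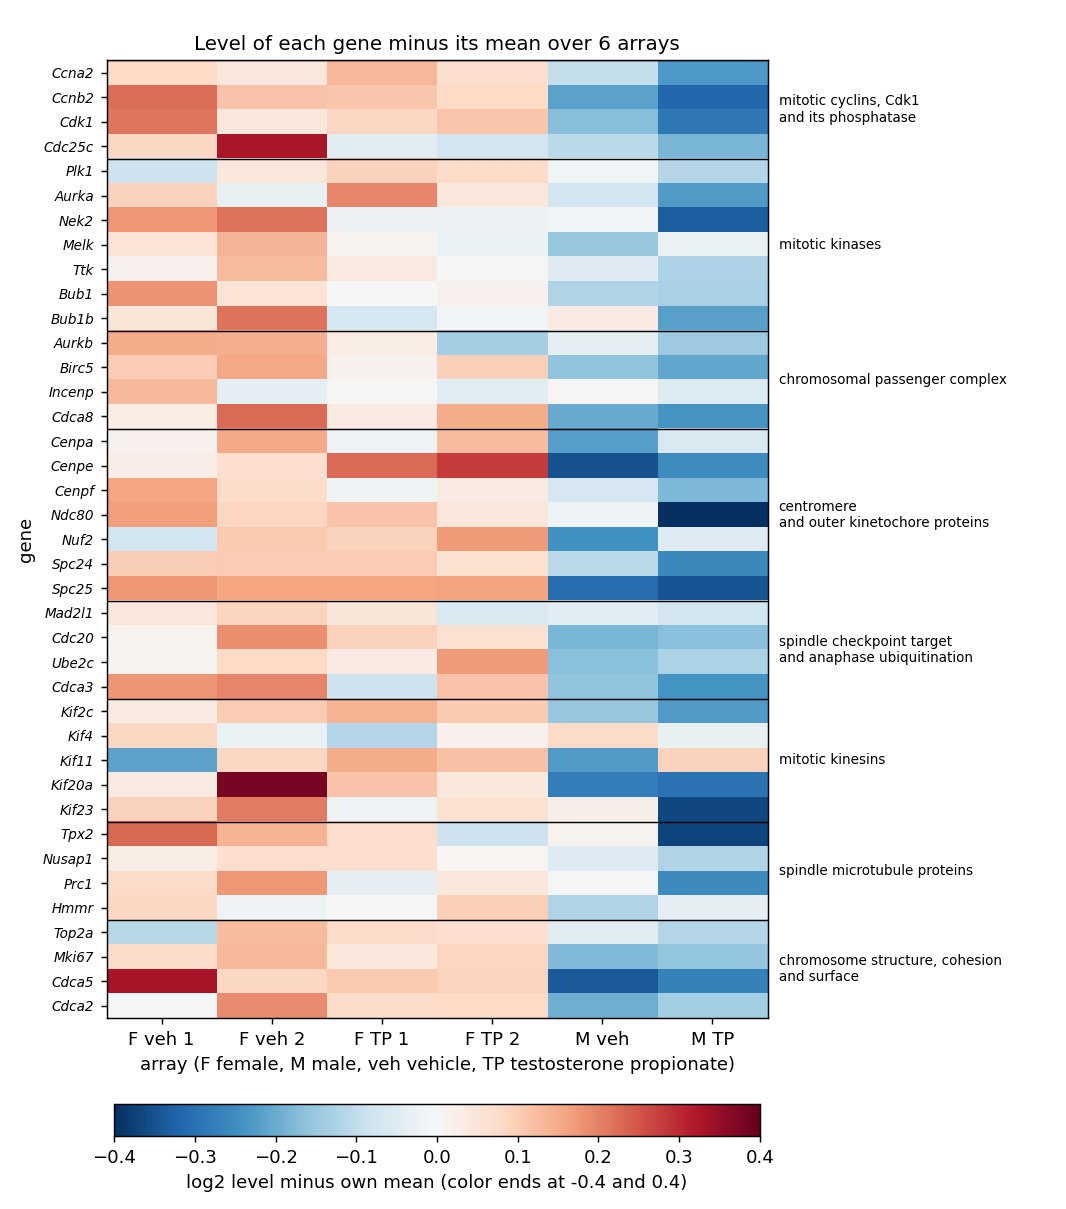
Level of each of the 39 genes (rows, grouped by role) on each of the 6 arrays (columns), as the log2 level minus that gene's mean over the arrays; red is above and blue below the mean, and colour ends at 0.4 units. The male columns are blue for most genes: 5 of 39 genes exceed their mean in vehicle males and 1 in TP males, against 28 to 35 on the female arrays.

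Counted array by array, the vehicle female arrays had 34 and 35 of the 39 genes above their own mean, the TP female arrays 28 and 30, the vehicle male array 5 and the TP male array 1. The same counts over all genes were 56.9% and 60.8%, 44.0% and 53.4%, 50.3% and 38.5%. The median of the members minus their own mean was 0.080 and 0.12 in vehicle females, 0.049 and 0.062 in TP females, -0.12 in vehicle males and -0.18 in TP males. A male array was the lowest of the 6 for 38 genes, the TP male array for 27 and the vehicle male array for 11, and no gene had its highest level in a male. The highest array was a vehicle female for 29 genes and a TP female for 10. In the 8 possible pairs of a male with a female array, between 32 and 39 members were lower in the male.

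Among the mitotic cyclins, Cdk1 and its phosphatase, 4 of 4 measured genes were lower in both male arrays than in any female, with a median difference of -0.29. Ccnb2 encodes cyclin B2, an activating partner of Cdk1, and stood at 7.90 and 7.79 in vehicle females, 7.78 and 7.75 in TP females, 7.46 in vehicle males and 7.36 in TP males. Its difference between the sexes was -0.40 (SE 0.06, adjusted p = 0.234), or 1.32-fold lower in males, and -0.39 on the vehicle arrays alone. Cdk1, the kinase that drives entry into mitosis, was at 8.49 and 8.32 in vehicle females, 8.35 and 8.38 in TP females, 8.10 in vehicle males and 7.98 in TP males. Its sex difference was -0.34 (SE 0.069, adjusted p = 0.239), and the male values do not overlap the female ones. Ccna2, cyclin A2, which acts from DNA replication into early mitosis, was at 8.53 and 8.50 in vehicle females, 8.58 and 8.52 in TP females, 8.35 in vehicle males and 8.22 in TP males, with the females tightly grouped and a difference of -0.24 (SE 0.065, adjusted p = 0.264), or -0.16 without the TP male array. Cdc25c, a phosphatase that activates Cdk1, is dim and stood at 5.62 and 5.87 in vehicle females, 5.50 and 5.47 in TP females, 5.43 in vehicle males and 5.36 in TP males. Here 1 vehicle female was high and the TP females were close to the males, and the sex difference was -0.22 (SE 0.086, adjusted p = 0.328).

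The 7 mitotic kinases were all lower in males, and 6 of 7 without the TP male array, with a median of -0.14, the smallest shift of the 8 role groups, and for 4 of them the sexes did not overlap. Aurka, encoding the centrosomal kinase Aurora A, was at 6.98 and 6.86 in vehicle females, 7.08 and 6.93 in TP females, 6.81 in vehicle males and 6.66 in TP males, with a sex difference of -0.23 (SE 0.083, adjusted p = 0.299), or -0.11 without the TP male array. Plk1, polo-like kinase, needed for spindle assembly and mitotic exit, showed 6.71 and 6.84 in vehicle females, 6.88 and 6.87 in TP females, 6.78 in vehicle males and 6.68 in TP males. The Plk1 ranges overlap and the difference was -0.096 (SE 0.073, adjusted p = 0.567). The Plk1 difference turned to 0.0081 without the TP male array. Bub1b encodes the checkpoint protein BubR1 and was at 6.64 and 6.81 in vehicle females, 6.52 and 6.58 in TP females, 6.62 in vehicle males and 6.37 in TP males, with the vehicle male inside the female range. Melk, a kinase abundant in neural progenitors, was at 6.55 and 6.63 in vehicle females, 6.51 and 6.47 in TP females, 6.35 in vehicle males and 6.47 in TP males, with the TP male and 1 TP female at practically the same level. Its difference was -0.13 with the TP male array and -0.25 without it. Nek2, a centrosome-separating kinase, stood at 6.82 and 6.87 in vehicle females, 6.63 and 6.63 in TP females, 6.64 in vehicle males and 6.32 in TP males, so that the TP male array alone was far below the rest. Its difference was -0.26 with that array and -0.21 without it. The remaining kinases, Ttk and Bub1 of the spindle checkpoint, differed by -0.13 and -0.19, both without overlap of the sexes.

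The chromosomal passenger complex corrects faulty attachments and later guides cytokinesis, and its 4 genes were lower in males with a median of -0.21. Birc5, which encodes survivin, its targeting subunit, was at 7.67 and 7.73 in vehicle females, 7.59 and 7.67 in TP females, 7.41 in vehicle males and 7.36 in TP males, and its difference of -0.28 (SE 0.059, adjusted p = 0.243) left both males below every female. Aurkb, the kinase subunit Aurora B, was at 7.06 and 7.05 in vehicle females, 6.94 and 6.77 in TP females, 6.87 in vehicle males and 6.76 in TP males. Its lowest female, a TP array, lay below the vehicle male, and the difference was -0.14 (SE 0.068, adjusted p = 0.401). Cdca8, encoding borealin, differed by -0.33 (SE 0.075, adjusted p = 0.261) without overlap. Incenp, the scaffold, differed by only -0.039, with a 95% interval of -0.20 to 0.12.

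All 7 centromere and outer kinetochore genes were lower in males (median -0.27), each with a 95% interval below 0, and in 6 the sexes did not overlap. Spc25 encodes a subunit of the NDC80 complex, which binds microtubule ends, and had the smallest p of the members. Its level was 7.75 and 7.73 in vehicle females, 7.73 and 7.74 in TP females, 7.27 in vehicle males and 7.23 in TP males. Over the arrays of both treatments it averaged 7.74 ± 0.0074 (SD, n = 4 arrays) in females and 7.25 ± 0.028 (SD, n = 2 arrays) in males. The female arrays lay close together and both male arrays stood apart from them. The Spc25 difference was -0.49 (SE 0.055, adjusted p = 0.0947), 1.40-fold lower in males, and -0.47 on the vehicle arrays alone. Spc24, its direct partner, differed by -0.27 (SE 0.06, adjusted p = 0.25). Ndc80, the microtubule-binding subunit of the complex and a dim gene, was at 5.89 and 5.81 in vehicle females, 5.84 and 5.77 in TP females, 5.71 in vehicle males and 5.32 in TP males, with most of its distance on the TP male array. Its difference was -0.31 with that array and -0.14 without it. Nuf2, the fourth subunit, differed by -0.22, with the TP male inside the female range.

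Cenpe encodes a kinetochore kinesin that carries chromosomes to the spindle equator. Its values were 6.72 and 6.76 in vehicle females, 6.92 and 6.97 in TP females, 6.35 in vehicle males and 6.44 in TP males, which put the TP females highest and both males lowest. The sex difference was -0.45 (SE 0.06, adjusted p = 0.234), 1.37-fold lower in males. Cenpa, the histone variant that marks centromeres, was at 8.18 and 8.31 in vehicle females, 8.15 and 8.29 in TP females, 7.94 in vehicle males and 8.10 in TP males, with a difference of -0.21 (SE 0.078, adjusted p = 0.306) and the vehicle male lowest. Cenpf, a large protein of the outer kinetochore, differed by -0.18 (SE 0.059, adjusted p = 0.276), without overlap.

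**Figure D2:**
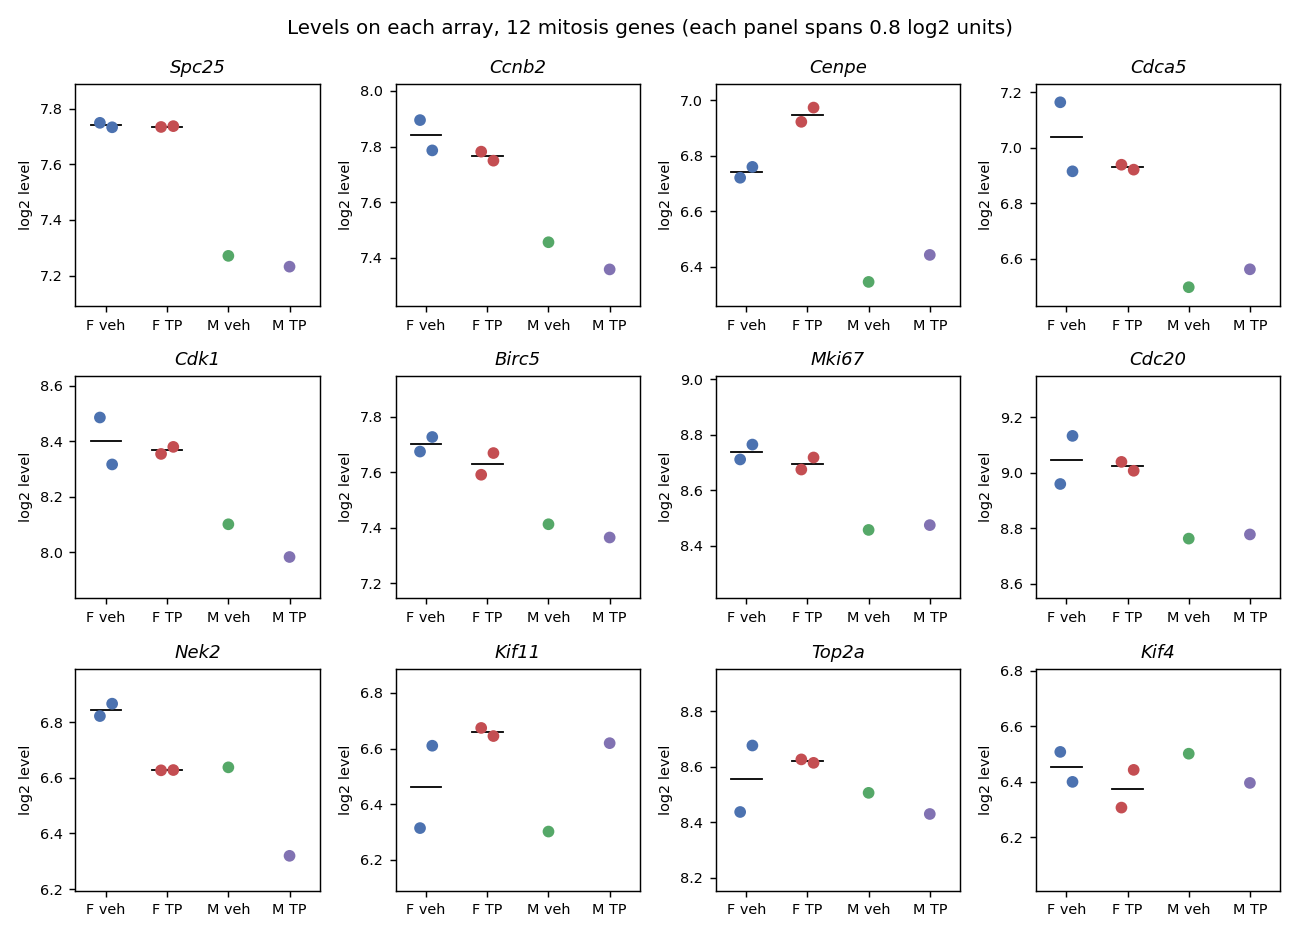
Log2 levels of 12 of the genes on each array, 1 point per array, with lines at the means of the groups of 2; each panel spans 0.8 log2 units. In Spc25, Ccnb2, Cenpe, Cdca5, Cdk1, Birc5, Mki67 and Cdc20 both male points lie below all female points, while in Nek2, Kif11, Top2a and Kif4 the sexes overlap.

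In the checkpoint target and ubiquitination group, 4 of 4 genes were lower in males with a median of -0.24, and 3 did not overlap. Cdc20, which activates the ubiquitin ligase that starts anaphase, was at 8.96 and 9.13 in vehicle females, 9.04 and 9.01 in TP females, 8.76 in vehicle males and 8.78 in TP males. The males lay close together, below every female, and the difference was -0.26 (SE 0.068, adjusted p = 0.261). Ube2c, the ubiquitin-conjugating enzyme of that ligase, was at 8.78 and 8.85 in vehicle females, 8.80 and 8.94 in TP females, 8.60 in vehicle males and 8.64 in TP males, and differed by -0.22 (SE 0.065, adjusted p = 0.269). Cdca3, a factor linked to destruction of the mitosis inhibitor Wee1, differed by -0.30 (SE 0.073, adjusted p = 0.261). Mad2l1, the checkpoint inhibitor of Cdc20, was at 8.80 and 8.85 in vehicle females, 8.81 and 8.69 in TP females, 8.71 in vehicle males and 8.68 in TP males. Its values span only a narrow range, overlap between the sexes and differed by -0.091, with an interval of -0.23 to 0.052.

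Among the 5 mitotic kinesins the direction was mixed, with 4 lower in males, a median of -0.25 (-0.16 without the TP male array) and 2 without overlap. Kif2c, which depolymerises microtubules at centromeres, differed by -0.28 (SE 0.062, adjusted p = 0.25). Kif20a, a kinesin of cytokinesis and a dim gene, was at 5.88 and 6.23 in vehicle females, 5.96 and 5.89 in TP females, 5.57 in vehicle males and 5.55 in TP males. Its males lay close together and 1 vehicle female was high, and it differed by -0.43 (SE 0.098, adjusted p = 0.261). Kif23, a motor of the central spindle, was at 6.76 and 6.87 in vehicle females, 6.64 and 6.73 in TP females, 6.69 in vehicle males and 6.30 in TP males, so only the TP male array lay outside the female range. The Kif23 difference was -0.25 with that array and -0.13 without it. Kif11, the motor that separates spindle poles, was at 6.31 and 6.61 in vehicle females, 6.67 and 6.64 in TP females, 6.30 in vehicle males and 6.62 in TP males. For this gene 1 vehicle female matched the vehicle male, the other 4 arrays were high, and the sex difference was -0.10 with an interval of -0.31 to 0.11, or -0.16 without the TP male array. Kif4, a chromosome-bound kinesin, was the exception among the 39 genes, at 6.51 and 6.40 in vehicle females, 6.31 and 6.44 in TP females, 6.50 in vehicle males and 6.40 in TP males and with a difference of 0.034.

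The 4 spindle microtubule proteins were lower in males with a median of -0.16, and in 2 the sexes did not overlap. Tpx2, which activates Aurora A and nucleates microtubules, was at 7.14 and 7.05 in vehicle females, 6.98 and 6.83 in TP females, 6.93 in vehicle males and 6.54 in TP males, with the TP male far below the others and the vehicle male inside the female range. Its sex difference was -0.26 (SE 0.076, adjusted p = 0.268) with the TP male array and -0.17 without it. Prc1, a cross-linker of the central spindle, also had the vehicle male inside the female range and differed by -0.19. Nusap1, a microtubule bundler, and Hmmr, a spindle pole protein, differed by -0.13 and -0.12, both without overlap.

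Of the chromosome proteins, 4 of 4 were lower in males with a median of -0.25. Cdca5 encodes sororin, which protects cohesion between sister chromatids, and was at 7.16 and 6.92 in vehicle females, 6.94 and 6.92 in TP females, 6.50 in vehicle males and 6.56 in TP males. Its difference was -0.45 (SE 0.085, adjusted p = 0.234), and -0.54 on the vehicle arrays alone. Mki67, the coat protein of mitotic chromosomes used as a proliferation marker, was at 8.71 and 8.76 in vehicle females, 8.67 and 8.72 in TP females, 8.46 in vehicle males and 8.47 in TP males. Over the arrays of both treatments Mki67 averaged 8.72 ± 0.037 (SD, n = 4 arrays) in females and 8.47 ± 0.012 (SD, n = 2 arrays) in males. Its difference was -0.25 (SE 0.058, adjusted p = 0.261). Top2a, the topoisomerase that untangles chromosomes, was at 8.44 and 8.68 in vehicle females, 8.63 and 8.61 in TP females, 8.51 in vehicle males and 8.43 in TP males, with the lower vehicle female at the male level and a difference of -0.12, or -0.051 without the TP male array. Cdca2, which recruits a phosphatase to chromosomes at mitotic exit, differed by -0.25 (SE 0.071, adjusted p = 0.268).

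The next comparison was TP against vehicle in females, the sex named in the title of the series. Here 29 of 39 genes were lower with TP, against 59.2% of all genes, and the median difference was -0.046, against -0.024 over all genes. With each array centred on its median, 21 of 39 were lower (43.1% of all genes) and the median was -0.0049, against 0.017 over all genes. Centring takes the same amount from every gene on an array, so it moves members and all genes alike by construction. TP and vehicle did not overlap for 13 genes lower with TP (24.7% of all genes) and 4 higher (13.4%). No member passed the adjusted threshold, with a smallest adjusted p of 0.636, and 2 lower and 1 higher had an unadjusted p under 0.05 (5.29% and 2.16% of all genes). Over all genes 0.022% passed as lower and 0.0055% as higher. The median 95% interval of a member, not adjusted for the number of genes, reached 0.19 either side of its estimate, or 1.14-fold. With 2 arrays a group, neither smaller differences nor larger ones, such as -0.26 for Cdc25c, passed the adjusted test.

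The 6 members with the smallest p in females were Nek2, Cenpe, Cdc25c, Aurkb, Tpx2 and Bub1b. Nek2, whose arrays lay close together within each female group, differed by -0.22 (SE 0.07, adjusted p = 0.636), with both TP females below both vehicle females. Another Nek2 probe set that was not dim differed the other way, by 0.11. Cenpe was the largest difference upward, 0.21 (SE 0.071, adjusted p = 0.638), and its other probe set that was not dim showed 0.01. Cdc25c differed by -0.26 (SE 0.098, adjusted p = 0.641), Aurkb by -0.20 (SE 0.083, adjusted p = 0.667), Tpx2 by -0.19 (SE 0.085, adjusted p = 0.687) and Bub1b by -0.17 (SE 0.086, adjusted p = 0.706). In each of these genes the TP and vehicle females did not overlap, and none of the differences passed the adjusted test. The differences nearest 0 were those of Spc25, Nusap1 and Hmmr, at -0.0054, -0.0096 and 0.012.

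Over both sexes in the additive model, 28 of 39 genes were lower with TP (62.1% of all genes), with a median of -0.061 against -0.029. With each array centred on its median, 21 of 39 were lower (42.2% of all genes), with a median of -0.013 against 0.018. All 3 TP arrays lay below all 3 vehicle arrays for 2 genes, Nek2 and Bub1b (10.3% of all genes), and above them for 1, Kif11 (4.69%). None passed, 0% of all genes passed in either direction, and 7 lower and 2 higher had an unadjusted p under 0.05 (8.45% and 3.8% of all genes). Nek2 differed by -0.25 (SE 0.055, adjusted p = 0.305), Tpx2 by -0.25 (SE 0.072, adjusted p = 0.34) and Bub1b by -0.20 (SE 0.066, adjusted p = 0.356). Kif23 differed by -0.22 (SE 0.075, adjusted p = 0.367), Cenpe by 0.17 (SE 0.056, adjusted p = 0.357) and Kif11 by 0.24 (SE 0.085, adjusted p = 0.373). Other probe sets that were not dim differed the other way for Nek2 (0.0985) and Cenpe (-0.025) and the same way for Bub1b (-0.15). The other Kif11 probe sets, all dim, differed the other way, by -0.070 and -0.061. Those of Tpx2 and Kif23 were dim and went both ways. Leaving out the array labelled male TP takes the vehicle male out of the contrast as well and returns the female values.

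**Figure D3:**
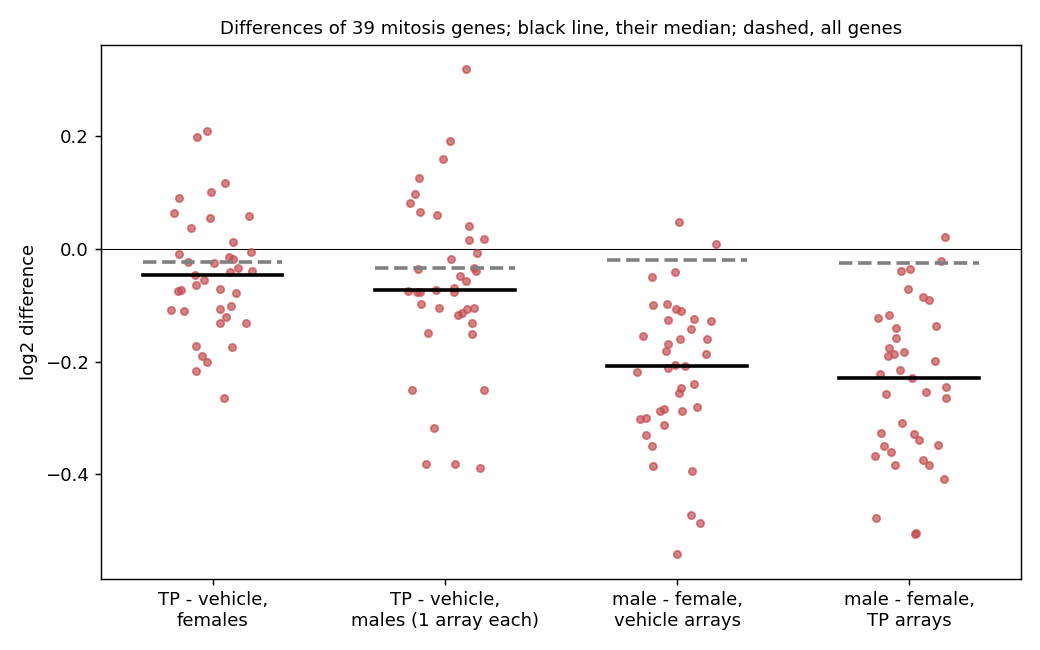
Log2 differences of the 39 genes (points) in 4 contrasts, with their median (black line) and the median of all 18193 genes (dashed grey). The points of the TP contrasts scatter on both sides of 0, while those of male minus female lie below 0 for 37 genes on the vehicle arrays and 38 on the TP arrays.

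Between the male arrays, with 1 array each and no test, 28 of 39 genes were lower with TP (59.6% of all genes), with a median of -0.073. Past 1.2-fold, 4 were lower (7.67%) and 1 was higher (4.22%). Kif23, Ndc80, Tpx2 and Nek2 were lower by more than that fold, at -0.39, -0.38, -0.38 and -0.32, and Kif11 was higher at 0.32. The other Nek2 probe set that was not dim went from 6.26 in vehicle males to 6.33 in TP males. The other Tpx2 probe sets, all dim, were higher with TP, the brightest going from 5.50 to 5.69. Those of Kif23, also dim, were lower with TP, and those of Kif11 went both ways. The female and male differences pointed down together for 23 genes and up together for 5, against 40.8% and 21.8% of all genes. Whether TP acted differently in the sexes was tested as an interaction, in which 21 of 39 values were negative (52.1% of all genes). No member passed, the smallest adjusted p was 1.0, and 1 member, Ndc80, had an unadjusted p under 0.05 on the negative side (2.44% of all genes), with 0 on the positive side (1.98%). Over all genes 0.0055% passed in each direction. Ndc80 had an interaction of -0.34 (SE 0.13), followed by Kif23 at -0.26, Melk at 0.23, Aurka at -0.24, Plk1 at -0.21 and Ccna2 at -0.17. A member's interval reached 0.33 either side at the median, and the lone male arrays are assumed to vary like the female ones.

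Of the 39 genes, 13 had 1 probe set and 26 had more, up to 5. Over all 87 probe sets, 63 were lower in males (54.6% of all single-gene probe sets) and 40 had both males below all females (12.5%). The 48 probe sets not used above divided by signal. Of the 9 that were not dim, 7 were lower in males, with a median of -0.19, and 6 did not overlap. Of the 39 dim ones, 18 were lower, with a median of 0.012. The second Ccna2 probe set differed by -0.39, the other Cdca8 probe sets by -0.33 and -0.40, and the second Cdc20 probe set by -0.20, all in the direction of the first. Without the TP male array 63 of 87 were lower, with 7 of the 9 (median -0.14) and 19 of the 39 dim ones (median 0.019). Opposite signs were seen in 23 probe sets, of which 2 were not dim, belonging to Bub1b (0.039) and Nek2 (0.071). The other 21 were dim. They included the second Spc25 probe set, at 0.13, and the largest were those of Cdca2 (0.37), Aurka (0.37) and Tpx2 (0.34).

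**Figure D4:**
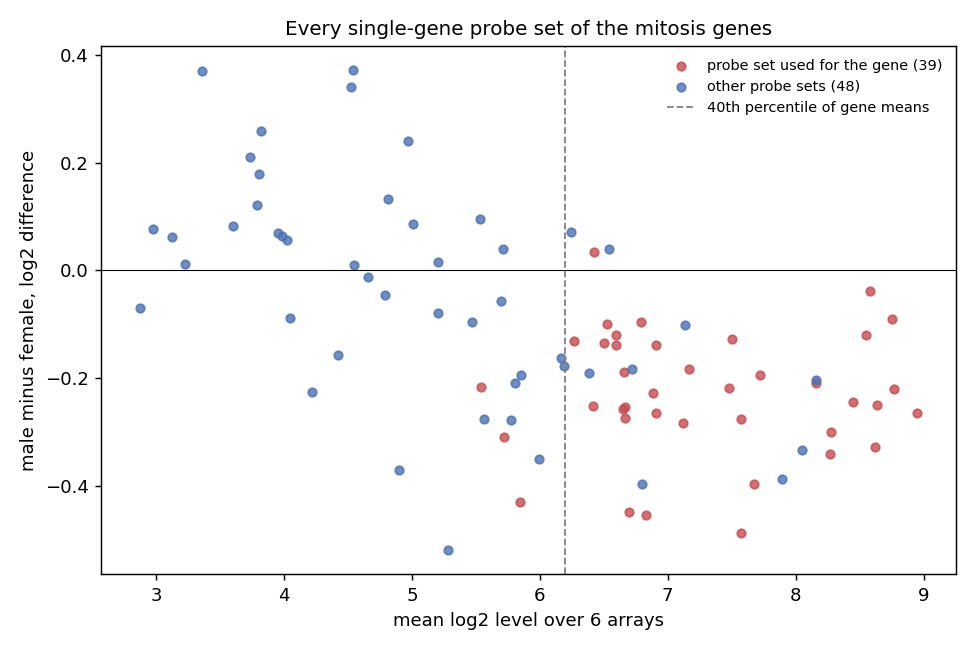
Male minus female difference (log2) of all 87 probe sets against their mean level over the 6 arrays; red points are the 39 probe sets used for the genes, blue points the other 48, and the dashed line marks the 40th percentile of gene means (6.19). Points right of the line lie mostly below 0, and the dim points left of it lie on both sides.

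The sex difference was also set against the promoter letters. The 22 genes with a CHR form within 50 bases of the start had a median of -0.22, with 15 not overlapping. The 9 with a promoter but no such form had a median of -0.22, with 6 not overlapping, and among them Nuf2 is the printed example. The 8 genes with no promoter sequence matched had a median of -0.25. Without the TP male array the medians were -0.17, -0.24 and -0.20 in the same order.

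Other genes of the cell cycle, taken from named lists, had medians nearer 0 between the sexes. The shares of all genes stand at 58.5% lower, 15.1% not overlapping and 8.37% with an unadjusted p under 0.05 as lower. Of the 10916 genes not dim, 72.5% were lower, 2385 did not overlap as lower and 1220 had an unadjusted p under 0.05 as lower. Among 79 other mitosis genes 66 were lower in males, with a median of -0.12 and 32 not overlapping, and 45 DNA replication genes had 38 lower, a median of -0.13 and 23 not overlapping. Of 24 transcriptional regulators of mitosis genes 17 were lower (median -0.065). None of these genes passed the adjusted test in limma, and 27, 18 and 2 had an unadjusted p under 0.05 as lower. Without the TP male array 64 of 79, 35 of 45 and 16 of 24 were lower, with medians of -0.14, -0.14 and -0.069. In the same order 24, 6 and 7 of the genes were dim, against 3 of the 39 members. The part of signal level in the distance between these lists and the members was not tested. Cks2, a small Cdk1-binding subunit, differed by -0.39 (SE 0.081, adjusted p = 0.243) and Uhrf1, which maintains DNA methylation during replication, by -0.38 (SE 0.065, adjusted p = 0.234). In TP against vehicle females, 44 of 79, 35 of 45 and 15 of 24 were lower, against 59.2% of all genes, and none passed.

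Markers of cell types moved with the sex difference in part. Whether the genes listed as precursor markers were confined to dividing cells in these brains was not tested. Of 14 cerebellar granule cell precursor markers, 13 were lower in males, against 58.5% of all genes and 72.5% of genes not dim. These 14 markers had a median of -0.20, with 8 not overlapping (15.1% of all genes, and 2385 of the 10916 not dim). Their mean log2 level was 7.88 and 7.96 in vehicle females, 7.87 and 7.83 in TP females, 7.75 in vehicle males and 7.62 in TP males. Pax6, a transcription factor of these precursors and of other progenitors, was at 8.39 and 8.38, 8.33 and 8.37, 8.05 and 8.002 in the same order of groups, a difference of -0.35 (SE 0.055, adjusted p = 0.234). Atoh1, the defining factor of granule cell precursors, is dim here, and the sexes overlap. It was at 6.07 and 6.02 in vehicle females, 5.82 and 5.55 in TP females, 5.85 in vehicle males and 5.53 in TP males. Its difference between TP and vehicle females was -0.36 (SE 0.10, adjusted p = 0.621 in limma). Of 12 radial glia and stem cell markers 11 were lower (median -0.083), with mean levels of 9.03 to 9.14 in females and 9.01 to 9.03 in males. Ganglionic eminence and subventricular zone markers had 4 of 8 lower (median -0.0066) and oligodendrocyte precursor markers 3 of 8 (median 0.028). Neuron markers had 9 of 10 lower with a median of -0.028. Without the TP male array the granule cell precursor markers had 12 of 14 lower (median -0.19) and the radial glia and stem cell markers 10 of 12 (median -0.085). Ganglionic eminence and subventricular zone markers then had 4 of 8 lower (median 0.0023), oligodendrocyte precursor markers 0 of 8 (median 0.072) and neuron markers 5 of 10 (median -0.019). None of these genes passed the adjusted test. On these arrays every gene has a value, so no marker is at 0. The part of any of these cell types in the mitosis gene difference was not tested.

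**Figure D5:**
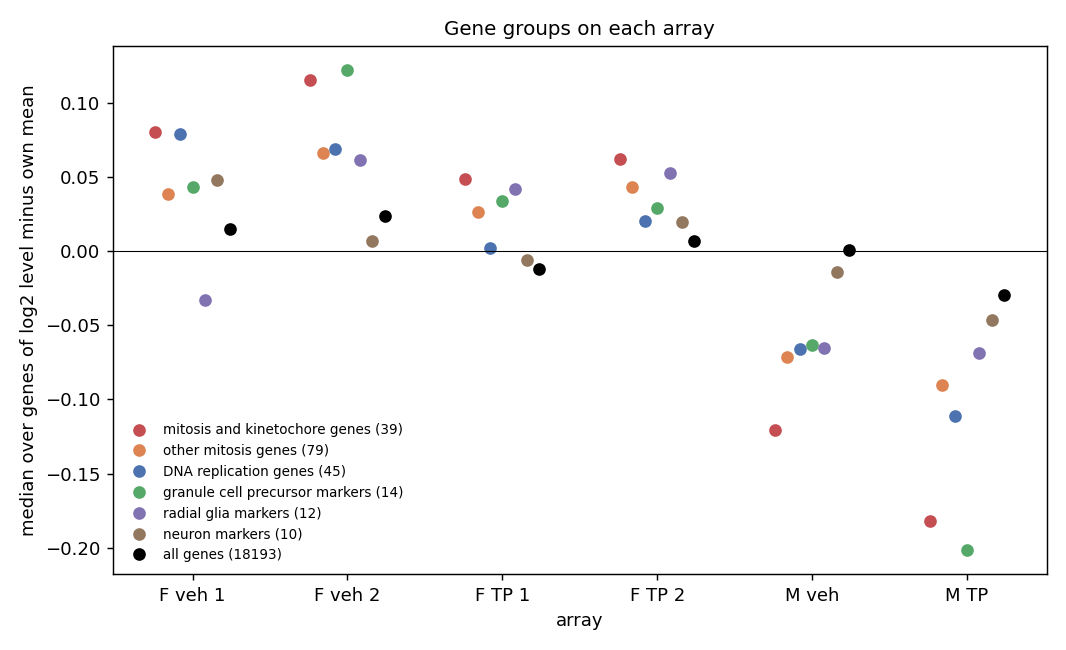
Median over the genes of each group of the log2 level minus the gene's own mean, on each of the 6 arrays. The mitosis and kinetochore genes lie at 0.049 to 0.12 on the female arrays and at -0.12 and -0.18 on the male arrays; granule cell precursor markers follow on the TP male array at -0.20, while all genes together stay between -0.030 and 0.024.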

How the data were processed

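RNA was measured on 6 Affymetrix arrays, each hybridised with RNA pooled from 6 neonatal mouse brains. Whether the female arrays called replica came from new pools is not stated. The deposited values are log2 levels that the authors made with RMA, per the submitters' processing notes; RMA corrects background, quantile normalizes and summarizes probe sets, with no version given in the sources used here. RMA equalizes array distributions over all probe sets, so a shift shared by most probe sets would be removed. Among the genes kept here a shift could remain. The median male against female was -0.024 over all genes and -0.051 over genes not dim. With quantile normalization again over the genes kept, it was -0.0009 over all genes and -0.18 over the members. No counts exist, so the number of arrays limits precision.

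Of 45101 probe sets, 34945 had 1 gene in the platform annotation, 932 had several and were not named, and 64 were controls. For each of 18193 genes the probe set of highest mean level was kept. At most 215 values were equal between any pair of arrays. Differences were tested two-sided in R 4.3.3 by limma 3.58.1 (functions lmFit and eBayes), with Benjamini-Hochberg adjustment over all genes and a threshold of 0.05. The script was tested on simulated data. Intervals are at 95%. Tables and figures used Python 3.11.15, pandas 2.3.3, scipy 1.17.1 and matplotlib 3.10.9. Promoters and gene names came from RefSeq (GRCm38.p6).

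The members and the gene lists were chosen with earlier results of these data known. Array by array values are given for the 6 members with the smallest p in each tested comparison, the 3 with the highest and the 3 with the lowest mean, and 11 role examples; Kif4 was added after its values were seen. From other lists, up to 3 genes with the smallest p could be named. Alternatives were other uses of probe sets, leaving out dim genes, other scaling, an intensity trend, a replicate block, 1 treatment alone and leaving out each array.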

Additional observations from a re-analysis of the deposited data

Results flagged for a closer look

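Xist, which belongs to no mitosis list, had a TP effect in males minus TP effect in females of 4.995 log2 units (SE 0.13, adjusted p = 0.000171, limma), a difference between the sexes that rests on the single array labelled male TP.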

How the results depend on the processing

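Of 304 values under the alternatives, over the 6 members with the smallest p in each tested comparison, 298 kept their direction and side of the threshold, 0 reversed and 6 came to pass (Spc25, Cenpe and Ccnb2, male against female, with dim genes left out or with the trend). Members past the threshold, male against female, numbered 0, and 3 under either of those settings. Genes past the threshold in female TP against vehicle numbered 5, then 3 with averaged probe sets, 2 with every probe set tested, 0 without dim genes, 15 with the trend and 0 without any 1 array. For both sexes they numbered 0, then 1 without dim genes, 7 with the trend and 5 without either male array. For male against female they numbered 3, then 10 without dim genes, 24 with the trend, 6 on the TP arrays alone and 7 without the vehicle male array. For the interaction they numbered 2, then 7 with every probe set, 6 with the trend and 1 without any 1 female array. The members' median moved in females from -0.046 to -0.026 with quantile normalization and -0.0049 with centring, and for both sexes from -0.061 to -0.030 with every probe set, -0.010 with quantile normalization and -0.013 with centring. For male against female it moved from -0.23 to -0.18 with mean probe sets, -0.16 with every probe set, -0.18 with quantile normalization, -0.18 with centring, -0.21 on the vehicle arrays alone and between -0.25 and -0.21 without an array. The interaction median was -0.016, against 0.0070 with mean probe sets and between -0.031 and 0.0085 without an array. For the male arrays 2164 genes passed 1.2-fold, against 5011 of all probe sets and 758 without dim genes, and the members' median of -0.073 became -0.048 with every probe set, -0.019 with quantile normalization and -0.013 with centring. Members with both males below all females numbered 26, and 40 of 87 over every probe set. The cause of these moves was not tested. With the original or replica array as a replicate block the members' median was -0.20, male against female, and no member's call changed; same-numbered arrays deviated together only weakly (correlation 0.11 over genes, 2 pairs), so they were not treated as paired. A low signal limits 3 members, and precision rests on 6 arrays.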

Other observations

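Among 17 genes of cell cycle exit, 15 were lower in males, with a median of -0.094 and 4 not overlapping (15.1% of all genes, and 2385 of the 10916 not dim). Without the TP male array 15 were lower and the median was -0.043. Cdkn2b, an inhibitor of the cyclin D kinases, had the smallest p of this list in the female TP comparison. It stood at 6.14 and 6.07 in vehicle females, 5.71 and 5.72 in TP females, 6.15 in vehicle males and 6.03 in TP males, a female difference of -0.39 (SE 0.072, adjusted p = 0.509). The TP females were below all other arrays, without passing the adjusted test, and Cdkn2b is dim here. Cdkn1a, the p53-induced inhibitor p21, had 9.40 and 9.49, 9.25 and 9.28, 9.40 and 9.20 in the same order, a female difference of -0.18 (SE 0.074, adjusted p = 0.667).

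Markers of neutrophil and erythroid precursors had median differences above 0 in males against females, the other direction from the mitosis genes. Most of these markers are dim, against 3 of 39 mitosis genes. Of all genes 58.5% were lower in males, and of genes not dim 72.5%. The part of signal level in this contrast was not tested. Of 10 genes listed as neutrophil precursor markers, 2 were lower in males and the median was 0.17, although 9 of the 10 are dim. Their mean level was 4.61 to 4.75 in females, 5.03 in vehicle males and 4.79 in TP males. S100a8 differed by 0.60 (SE 0.10, adjusted p = 0.234) between the sexes. Whether the neutrophil markers came from dividing cells was not tested. Of 9 erythroid precursor markers, 6 of them dim, 3 were lower in males (median 0.060). Of 9 microglia markers 6 were lower (median -0.067), of 8 endothelial markers 6 (median -0.049), of 9 meninges and choroid plexus markers 7 (median -0.099) and of 6 intermediate progenitor markers 5 (median -0.11). Without the TP male array 4 of 8 endothelial markers were lower (median -0.012), 5 of 9 microglia markers (median -0.013), 6 of 9 meninges and choroid plexus markers (median -0.0074) and 4 of 6 intermediate progenitor markers (median -0.23). The neutrophil list then had 2 of 10 lower (median 0.24) and the erythroid list 2 of 9 (median 0.069). Neurod1, in the intermediate progenitor list, is also a granule cell precursor marker here. In TP against vehicle females all 8 endothelial markers were lower, with a median of -0.073, against 59.2% of all genes, and none passed.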
